A study of Mus musculus with 9 samples.

Results

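The genes described here encode the proteins of the mitochondrial ribosome. They were taken as every gene with values in the deposited table whose symbol starts with Mrpl or Mrps and a digit. The rule found 77 genes among 17559 with values. By the structure of the mammalian particle, 26 of them code for proteins of the small subunit and 50 for proteins of the large subunit. Mrps18a and Mrps30 carry small-subunit names but their proteins sit in the large subunit, where they are counted. Mrps36 was counted in neither, since its protein is now known as a component of the 2-oxoglutarate dehydrogenase complex.

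The cells were primary peritubular myoid (PTM) cells of the mouse testis (strain C57BL/6J), smooth-muscle-like cells that wrap the seminiferous tubules and contract, and the series asks what heat stress does to them. The heated groups were kept at 42 °C for 30 min in a water bath, returned to the incubator and collected after 1 h or after 6 h, and the control group was cultured at 37 °C without that bath. Each of the 3 groups has 3 libraries of total RNA, and all cells share strain, primary culture and medium. The labels do not say whether the replicates were separate animals or cultures, so each p-value measures a spread between libraries that may be only technical.

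Mitochondria keep a small genome that codes for core subunits of the respiratory chain and ATP synthase, and a ribosome of their own that translates these messages. Its RNA comes from the mitochondrial genome, but all of its proteins are encoded in the nucleus, made in the cytosol and imported. Compared with the bacterial ribosome, the mammalian mitochondrial one has lost much of its RNA and gained proteins that bacteria do not have. The nuclear genes for mitochondrial proteins are known targets of GA-binding protein (an ETS-family factor), NRF1 and YY1, which bind close to the transcription start.

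Values are FPKM, which correct fragment numbers for transcript length and library size. Levels compared between genes therefore rest on the length used for each. From low values, depth was estimated at 18920000 to 19960000 reads in the 9 libraries, a ratio of at most 1.05. The least covered member had an estimated 162 reads in 1 library (Mrpl46, 1 h after heat), where counting error is 7.86% of the value. The test covered the 11460 genes that reached 1 FPKM in 3 or more libraries, and all 77 members were among them. Hspa1a, Hspa1b, Dnajb1, Hsph1 and Bag3, targets of the heat shock factor, summed to 4029 to 5874 FPKM at 1 h, 182 to 522 FPKM at 6 h and 132 to 151 FPKM in control cells. The 8 contractile markers of myoid cells were present in every library, summing to 4125 to 4394 FPKM at 1 h, 3679.62 to 5436 FPKM at 6 h and 4287 to 5317 FPKM in control cells. Control replicate 3 stood apart, with 3160.25 FPKM summed over the Sertoli cell markers against 258 to 581 FPKM in the other 8 libraries. Of that sum, Clu alone had 2700 FPKM. Cldn11, Sox9, Wt1 and Inha were also highest in control replicate 3, and Gata4 and Krt18 were not. Control replicate 3 and 6 h replicate 2 also deviated from the other libraries by transcript length, in opposite directions. Medians and counts over the members and over the other gene sets that moved without these libraries are given with and without them. Those of the endothelial markers are given with all 9 libraries only.

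Promoters of the members are shown first because the members share start-site letters more often than protein-coding genes at large do. RefSeq sequences (GRCm38.p6) running from 250 bases before to 50 bases after the start were found for 68 of the 77. Those of Mrpl4, Mrpl13, Mrpl15, Mrpl19, Mrpl38, Mrpl54, Mrps28, Mrps34 and Mrps35 were not used here. Of these 68 windows 25 (36.8%) held CCGGAAG, the core of ETS-family sites, on either strand, against 12.9% of the windows of 17492 protein-coding genes. That background was not limited to the genes tested here, as the members were, and no share over the tested genes was taken. AAGATGGCG, the YY1 form, stood in 8 windows (11.8%), against 2.14% of the protein-coding genes. The NRF1 palindrome, whose letters are the capitals in the Mrpl9 sequence, stood in 3 windows (4.41%), against 1.47%. A consensus heat shock element of 3 alternating repeats, searched on both strands like the others, stood in none of the members' windows, against 0.595% of the protein-coding genes, which says only that these letters are not in these windows. The ETS, YY1 and NRF1 motifs share no stretch that would let one count for another, and a match is a description of the letters, not a site. Given here, on the gene's own strand and from 250 bases before to 30 bases after the start, are Mrpl43, Mrps12 and Mrpl18, which stood lowest or nearly so at 1 h relative to control, Mrps18a, which holds an ETS and a YY1 match, and Mrpl9, which holds the NRF1 match. Capitals mark the matches.
Mrpl43 promoter, chr19:45006413-45006692, minus strand: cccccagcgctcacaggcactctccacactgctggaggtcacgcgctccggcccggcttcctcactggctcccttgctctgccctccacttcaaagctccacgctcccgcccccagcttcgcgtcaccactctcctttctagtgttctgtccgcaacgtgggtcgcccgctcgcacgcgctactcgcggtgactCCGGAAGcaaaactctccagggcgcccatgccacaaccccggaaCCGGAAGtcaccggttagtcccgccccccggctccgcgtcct
Mrps12 promoter, chr7:28741792-28742071, minus strand: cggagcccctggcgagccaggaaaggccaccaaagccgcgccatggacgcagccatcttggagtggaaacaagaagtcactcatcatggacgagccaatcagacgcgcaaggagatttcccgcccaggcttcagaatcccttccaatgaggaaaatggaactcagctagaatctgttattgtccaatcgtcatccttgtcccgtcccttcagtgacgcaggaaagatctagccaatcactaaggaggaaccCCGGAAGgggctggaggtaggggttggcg
Mrpl18 promoter, chr17:12916062-12916341, minus strand: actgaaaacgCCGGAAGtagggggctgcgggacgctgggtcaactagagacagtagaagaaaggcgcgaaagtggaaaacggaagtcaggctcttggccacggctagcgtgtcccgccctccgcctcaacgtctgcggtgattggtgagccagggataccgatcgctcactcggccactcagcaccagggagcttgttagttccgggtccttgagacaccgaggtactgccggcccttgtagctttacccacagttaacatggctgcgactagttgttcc
Mrps18a promoter, chr17:46110754-46111033, plus strand: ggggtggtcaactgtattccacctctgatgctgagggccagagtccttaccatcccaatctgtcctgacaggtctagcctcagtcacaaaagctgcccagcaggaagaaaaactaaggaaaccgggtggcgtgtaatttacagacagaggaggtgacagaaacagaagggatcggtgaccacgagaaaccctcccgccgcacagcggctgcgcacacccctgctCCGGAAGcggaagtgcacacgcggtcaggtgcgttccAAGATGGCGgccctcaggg
Mrpl9 promoter, chr3:94443086-94443365, plus strand: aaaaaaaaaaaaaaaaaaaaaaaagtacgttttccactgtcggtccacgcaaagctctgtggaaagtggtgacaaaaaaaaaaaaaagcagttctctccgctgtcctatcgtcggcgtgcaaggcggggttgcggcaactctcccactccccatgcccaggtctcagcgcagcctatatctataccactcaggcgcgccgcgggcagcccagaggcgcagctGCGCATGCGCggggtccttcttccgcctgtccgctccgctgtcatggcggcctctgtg
With positions counted from the start as 1 and no position 0, the 2 ETS matches of Mrpl43 began at -56 and -12, that of Mrps12 at 2 and that of Mrpl18 at -240. The ETS match of Mrps18a began at -26 and its YY1 match at 12, and the NRF1 match of Mrpl9 began at -28. Members with an ETS match had a median log2 difference of -0.30 at 1 h against control and members without one -0.27. Members with a match lay between -0.56 and -0.10 and those without one between -0.44 and -0.00059, and the 4 most negative members with a promoter window, Mrpl18, Mrpl53, Mrpl43 and Mrps12, all held a match. This was seen after the values were known and was not tested.

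The members had very different transcript levels. Their means in control cells lay between 4.94 and 161 FPKM, the highest 32.5 times the lowest, with a median of 26.6 FPKM. The large subunit had a median of 28.1 FPKM and the small subunit one of 24.4 FPKM. The highest members of the large subunit were Mrpl52, Mrpl33, Mrpl20 and Mrpl30, and those of the small-subunit names were Mrps21, Mrps18c, Mrps36 and Mrps16. Mrpl52, a protein found in no bacterial ribosome, had 115, 129 and 140 FPKM at 1 h, 133, 165 and 176 FPKM at 6 h, and 163, 196 and 123 FPKM in control cells. The lowest were Mrpl19, Mrpl1, Mrpl17 and Mrpl35 in the large subunit and Mrps25, Mrps27, Mrps31 and Mrps35 in the small one. Mrpl19, a homolog of bacterial L19 at the interface of the subunits, had 3.99, 3.96 and 3.45 FPKM at 1 h, 4.93, 5.13 and 5.72 FPKM at 6 h, and 4.56, 5.98 and 4.29 FPKM in control cells. Ordered by mean over the 9 libraries, no 2 neighbouring members had ranges that did not overlap, so the order is fixed only between members further apart. The order was kept between groups, with a Spearman correlation across the 77 members of 0.98 between 1 h and control means and 0.98 between 6 h and 1 h means. Members are not independent of each other, and the correlations are descriptions. Levels ran against transcript length, with a Spearman correlation of -0.74 across members. How far the order of levels follows from the length used in FPKM was not tested. The members' transcripts were short, with a median of 1055 bases against 2861.5 bases for all genes tested.

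**Figure D1:**
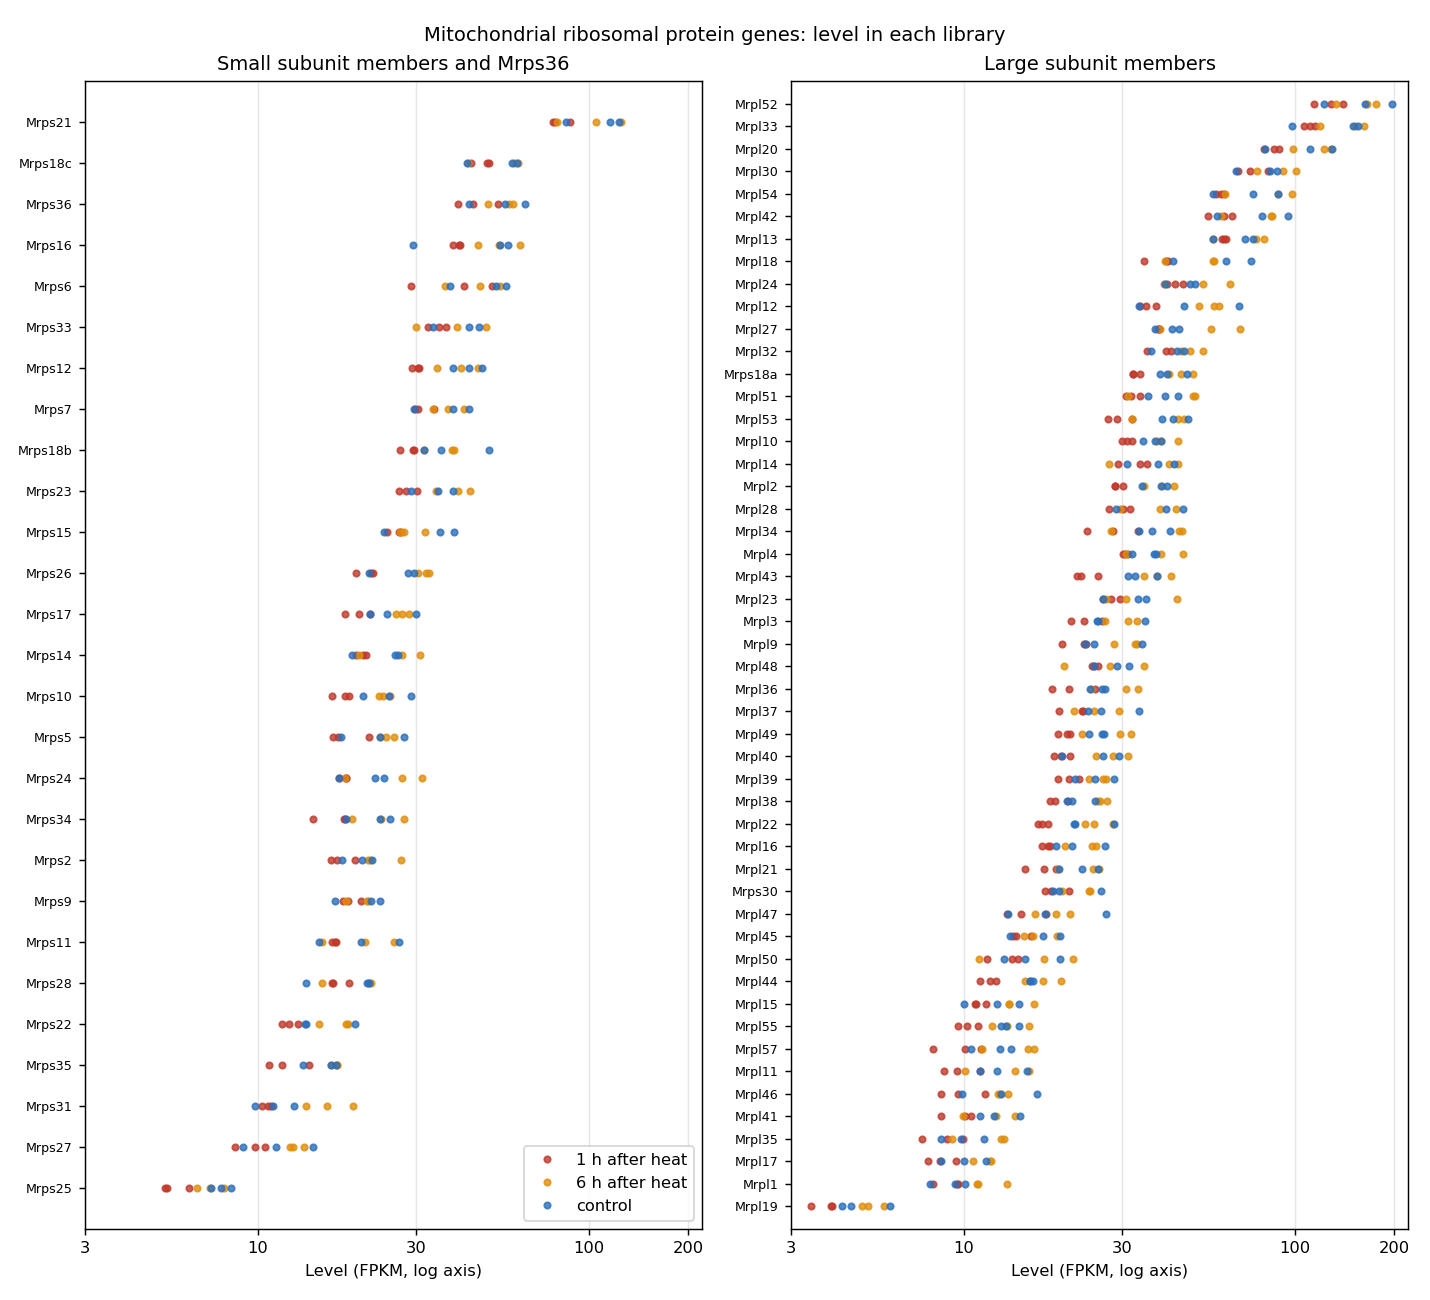
Level of each of the 77 members in each library, in FPKM on a log axis, with 1 point per library coloured by group and members ordered by mean. Mrpl52 and Mrps21 stand at the top of the panels and Mrpl19 and Mrps25 at the bottom, and the order of the members is alike in all 3 groups.

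Mrps18a, Mrps18b and Mrps18c descend from a single bacterial S18 gene. Mrps18c, the closest to the bacterial protein, averaged 47.7 ± 3.20 FPKM at 1 h, 54.7 ± 9.91 FPKM at 6 h and 54.2 ± 9.76 FPKM in control cells (SD, n = 3 each). Mrps18a, in the large subunit, averaged 33.0 ± 0.932 FPKM at 1 h, 45.4 ± 3.87 FPKM at 6 h and 42.5 ± 4.15 FPKM in control cells. Mrps18b, in the small subunit, averaged 28.6 ± 1.55 FPKM at 1 h, 36.5 ± 4.11 FPKM at 6 h and 39.2 ± 9.63 FPKM in control cells. The 3 paralogs were thus all transcribed, with Mrps18c the highest in each group and no overlap with Mrps18b at 1 h.

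At 1 h after heat the question is whether the genes of the mitochondrial ribosome had responded by the time the heat shock genes stood highest. All 77 members had a lower mean log2(FPKM + 1) at 1 h than in control cells, and none passed the test. The median difference was -0.27 on the log2 scale, against -0.17 for all genes tested, of which 76.2% were below 0 and 23.8% above. Single members lay between -0.56 and -0.00059. In limma with Benjamini-Hochberg adjustment over all genes, 0 of 77 were called lower at an adjusted p below 0.05, against 0% of the genes tested, and 0 were called higher, against 0.157%. The smallest adjusted p of a member was 0.28. At an unadjusted p below 0.05 there were 13 members lower (16.9%), against 8.05% of the genes tested, and 0 higher, against 2.76%. In 25 members (32.5%) every 1 h library lay below every control library, against 21.4% of the genes tested, and in 0 did every 1 h library lie above, against 4.49%. These counts without control replicate 3 were 69 members (89.6%), against 35.2%, and 0, against 8.13%.

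The size of the difference depended on which control library the heated ones were set against. The 3 libraries at 1 h stood close together, with summed member levels of 2145, 2253 and 2225 FPKM, while the controls had 2808, 3095 and 2243 FPKM. Against control replicate 2 all 77 members were lower in each 1 h library, with median log2 differences of -0.52, -0.41 and -0.45. Against control replicate 1 there were 75, 70 and 76 members lower, with medians of -0.35, -0.26 and -0.31. Against control replicate 3 there were 48, 36 and 43 members lower, with medians of -0.06, 0.02 and -0.02. Control replicate 3 itself had 77 of 77 members below control replicate 2, with a median of -0.41, and 71 below control replicate 1, with a median of -0.25. The medians of 1 h replicates 1 and 3 were thus further below control replicates 1 and 2 than those of control replicate 3. Those of 1 h replicate 2, at -0.26 and -0.41, were about level with those of control replicate 3, at -0.25 and -0.41. Without control replicate 3 the median over members was -0.39 and 35 members reached an unadjusted p below 0.05, against 8.84% of the genes tested, with 0 called by limma and a smallest adjusted p of 0.33. Without control replicate 2 the median was -0.16, against -0.15 for all genes tested, and 5 members reached an unadjusted p below 0.05, against 7.37% of the genes tested. Whether the high sum of Sertoli cell markers in control replicate 3 bears on its low member levels was not tested.

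**Figure D2:**
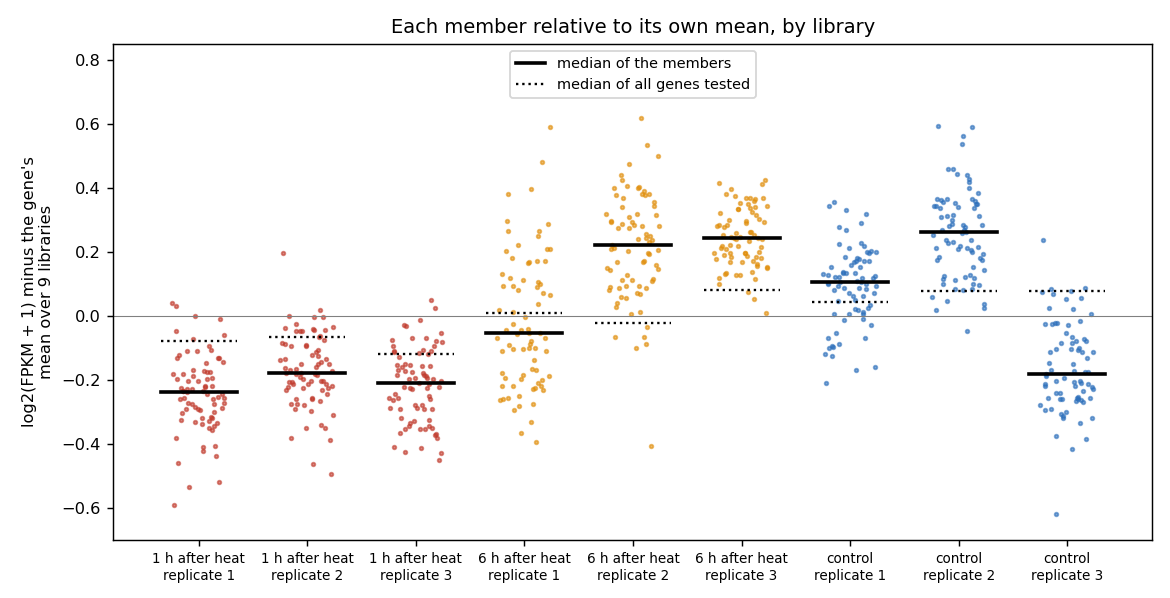
Each point is 1 member in 1 library, as its log2(FPKM + 1) minus its own mean over the 9 libraries, with the members' median (solid) and the median of all 11460 genes tested (dotted). The medians of the members at 1 h are -0.24, -0.18 and -0.21, close to -0.18 in control replicate 3, while control replicates 1 and 2 stand at 0.11 and 0.26.

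The 5 members with the smallest p at 1 h were Mrpl43, Mrps12, Mrpl53, Mrps10 and Mrpl44. Mrpl43, a protein of the large subunit with no bacterial counterpart, had 25.4, 21.9 and 22.6 FPKM at 1 h and 32.9, 38.2 and 31.4 FPKM in control cells. The groups did not overlap, and the log2 difference was -0.53 ± 0.14 (SE; limma adjusted p = 0.28). Mrps12, the homolog of the bacterial decoding-centre protein S12, had 30.5, 29.2 and 30.7 FPKM at 1 h and 43.6, 47.8 and 39.0 FPKM in control cells. Its groups did not overlap either, and the difference was -0.51 ± 0.15 (SE; limma adjusted p = 0.32). Mrpl44, an RNase III-like protein whose human counterpart is mutated in an inherited cardiomyopathy, had 12.48, 11.17 and 11.96 FPKM at 1 h and 15.8, 16.2 and 15.8 FPKM in control cells. It had the smallest spread of all members in control cells, a coefficient of variation of 1.36% against a median of 16.2% over the 77, and a difference of -0.40 ± 0.14 (SE; limma adjusted p = 0.39). Control replicate 3, low for most members, was thus level with the other controls for Mrpl44.

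Mrpl53 of the large subunit averaged 29.5 ± 2.59 FPKM at 1 h and 43.4 ± 4.10 FPKM in control cells (SD, n = 3 each), a log2 difference of -0.54. Mrps10, the homolog of bacterial S10, averaged 18.0 ± 1.09 FPKM at 1 h and 24.9 ± 4.14 FPKM in control cells, a difference of -0.44. In both the libraries of the groups did not overlap, and in both the limma adjusted p was over the threshold (0.35 and 0.39). The most negative difference was that of Mrpl18, whose product is also known in human cells as a cytosolic short form that takes part in translating HSP70 during heat stress. Mrpl18 had 35.1, 41.3 and 40.9 FPKM at 1 h and 62.0, 73.9 and 42.8 FPKM in control cells, a difference of -0.56 ± 0.22 (SE; limma adjusted p = 0.43). Its control libraries ranged widely, and the lowest lay just above the highest 1 h library. FPKM per gene do not tell the 2 protein forms of Mrpl18 apart.

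Mrpl1 and Mrps31 stood nearest to control cells at 1 h, and other members picked for their roles are given after them. Mrpl1, a homolog of bacterial L1, which forms the stalk beside the tRNA exit, averaged 9.08 ± 0.870 FPKM at 1 h and 9.10 ± 1.11 FPKM in control cells. Mrps31, a small-subunit protein found in no bacterial ribosome, averaged 10.7 ± 0.345 FPKM at 1 h and 11.3 ± 1.53 FPKM in control cells. Mrpl45, which faces the inner membrane where the ribosome is anchored, averaged 14.8 ± 1.03 FPKM at 1 h and 16.9 ± 2.87 FPKM in control cells. Mrps30 averaged 18.9 ± 1.63 FPKM at 1 h and 21.3 ± 4.04 FPKM in control cells. These differences, of -0.00059, -0.06, -0.17 and -0.15 on the log2 scale, were within the spread of the libraries. Those of Mrpl45 and Mrps30 were close to the median of all genes tested, -0.17. The 1 h libraries of Mrpl45 (14.38, 15.99 and 14.06 FPKM) all lay below control replicates 1 and 2 (17.37 and 19.45 FPKM). They all lay above control replicate 3 (13.78 FPKM). Mrpl36, whose bacterial homolog is the smallest protein of the large subunit, averaged 21.4 ± 3.25 FPKM at 1 h and 25.6 ± 1.39 FPKM in control cells. Mrps36 averaged 46.1 ± 6.59 FPKM at 1 h and 54.6 ± 10.5 FPKM in control cells. Their log2 differences of -0.25 and -0.23 were near the members' median of -0.27.

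Subunit and evolutionary origin separated the medians at 1 h by less than 0.1 on the log2 scale. The small subunit had a median of -0.26, with 5 of 26 members at an unadjusted p below 0.05, and the large subunit one of -0.29, with 8 of 50. Over all genes tested, 8.05% were lower at that p. Among small-subunit proteins, the 16 with bacterial homologs had a median of -0.23 and the 10 specific to mitochondria one of -0.30. Among large-subunit proteins, the 29 with bacterial homologs had a median of -0.26 and the 20 specific to mitochondria one of -0.32. Mrpl55 is in neither of these last lists. No test of the difference between these classes was run.

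By 6 h after heat the members stood near control levels. Of the 77, 59 had a higher mean log2 value than in control cells and 18 a lower one, where 39.9% of the genes tested were above 0 and 60.1% below. The median difference was 0.08 on the log2 scale, against -0.06 for all genes tested, and single members lay between -0.19 and 0.51. Among transcripts up to 1000 bases, the 32 members had a median of 0.07 with 31.2% below 0. The other genes of that length had 0.10 with 29.9% below 0. In limma 0 members were called in either direction, against 0% of the genes tested higher and 0% lower. Before adjustment 1 member reached p below 0.05 on the higher side (1.3%), against 1.27% of the genes tested, and 0 on the lower side, against 3.35%. The median turned with the libraries used. Without control replicate 3 it was -0.03, without 6 h replicate 2 it was 0.03, and without both libraries it was -0.10. The summed member levels were 2449, 3055 and 3049 FPKM at 6 h and 2808, 3095 and 2243 FPKM in control cells, so each group held 1 library well below its other 2.

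The member that stood out most at 6 h was Mrps31. It had 19.4, 14.0 and 16.2 FPKM at 6 h and 11.1, 12.9 and 9.83 FPKM in control cells, and the groups did not overlap. The log2 difference was 0.51 ± 0.16 (SE; limma adjusted p = 0.88), and it was the 1 member below 0.05 before adjustment. Mrpl1, Mrps26 and Mrpl38 were the other members whose 6 h libraries all lay above every control library, which makes 4 of 77 (5.19%), against 1.89% of the genes tested, and no member lay wholly below, against 5.32%. Without both control replicate 3 and 6 h replicate 2 there were 6 members (7.79%) wholly above, against 16.9%, and 8 (10.4%) wholly below, against 17.8%. Mrpl1 averaged 11.8 ± 1.46 FPKM at 6 h and 9.10 ± 1.11 FPKM in control cells, a log2 difference of 0.35 ± 0.16 (SE; limma adjusted p = 0.88). Mrps26 and Mrpl38, both specific to mitochondria, had differences of 0.26 and 0.22. Mrps31 and Mrpl1 were also the members nearest to control at 1 h, and all their 6 h libraries lay above those of both other groups.

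At the other end at 6 h were Mrpl18, Mrps15, Mrpl37, Mrps12 and Mrps25, none of which passed the test. Mrpl18 had 40.5, 56.8 and 56.5 FPKM at 6 h and 62.0, 73.9 and 42.8 FPKM in control cells, a log2 difference of -0.19 ± 0.22 (SE). Mrps15, the homolog of bacterial S15, averaged 28.8 ± 2.69 FPKM at 6 h and 33.0 ± 7.98 FPKM in control cells. Mrpl37 averaged 25.2 ± 3.94 FPKM at 6 h and 27.8 ± 5.30 FPKM in control cells. Their libraries overlapped with those of control cells. Mrps12 stood at -0.10 and Mrps25 at -0.09 on the log2 scale.

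In the comparison of the heated groups the means come from the heated libraries alone, while the control libraries enter the shared estimate of the spread. All 77 members had a higher mean log2 value at 6 h than at 1 h, where 62.9% of the genes tested did. The median difference was 0.37, against 0.09 for all genes tested, and single members lay between 0.09 and 0.70. In limma 0 members were called in either direction, against 0% of the genes tested higher and 0.279% lower, and the smallest adjusted p of a member was 0.091. At an unadjusted p below 0.05 there were 31 members higher (40.3%), against 8.45% of the genes tested, and 0 lower, against 3.19%. In 42 members (54.5%) every 6 h library lay above every 1 h library, against 15.2%, and in 0 did all lie below, against 4.97%. Within the 6 h group, replicate 1 had lower member levels than the others, 59 of 77 below replicate 2 and 67 below replicate 3. Even so, 59, 56 and 56 members were higher in it than in the 3 libraries at 1 h. In 6 h replicate 3 all 77 members were higher than in each 1 h library. Without 6 h replicate 2 the median was 0.32, against 0.12 for all genes tested, 24 members reached an unadjusted p below 0.05, against 13% of the genes tested, and 45 members (58.4%) had every 6 h library above every 1 h library, against 31.9%. The count of 31 at an unadjusted p below 0.05 was 48 without 6 h replicate 1, against 10.6% of the genes tested, and 11 without 6 h replicate 3, against 4.02%. It was 16 without 1 h replicate 1, against 5.54%, and 17 without 1 h replicate 3, against 4.63%. Through the shared spread it was 26, 35 and 41 without control replicates 1, 2 and 3 (7%, 8.57% and 10.1% of the genes tested). It was 37 with only the heated libraries in the fit (9.07%).

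Mrpl43 led this comparison too. It had 38.3, 34.9 and 42.3 FPKM at 6 h and 25.4, 21.9 and 22.6 FPKM at 1 h, without overlap, a log2 difference of 0.70 ± 0.14 (SE; limma adjusted p = 0.091). Mrpl44 had 19.6, 15.3 and 17.3 FPKM at 6 h and 12.48, 11.17 and 11.96 FPKM at 1 h, a difference of 0.51 ± 0.14 (SE; limma adjusted p = 0.19). Mrps26 had 30.4, 32.8 and 32.3 FPKM at 6 h and 21.9, 19.8 and 22.3 FPKM at 1 h, a difference of 0.56 ± 0.15 (SE; limma adjusted p = 0.19). Each of the 3 had 6 h libraries well clear of those at 1 h, and for Mrps26 the 6 h libraries were tightly grouped. Mrps31, with 19.4, 14.0 and 16.2 FPKM at 6 h against 10.31, 10.99 and 10.75 FPKM at 1 h, had a difference of 0.57 (limma adjusted p = 0.23). Mrpl22, whose bacterial homolog lines the tunnel through which the new chain leaves the ribosome, averaged 25.4 ± 2.58 FPKM at 6 h and 17.3 ± 0.607 FPKM at 1 h, a difference of 0.52 (limma adjusted p = 0.24).

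Among the members picked for their roles, Mrpl12 had the largest difference between the heated groups. Its protein is a homolog of the bacterial stalk protein L7/L12 and also binds the mitochondrial RNA polymerase. Mrpl12 had 51.3, 57.1 and 59.1 FPKM at 6 h, 34.0 to 38.0 FPKM at 1 h, and 46.3, 67.7 and 33.8 FPKM in control cells. The 6 h libraries lay above all those at 1 h (log2 difference 0.63 ± 0.22, SE; limma adjusted p = 0.34), while the control libraries spanned the range of both. Mrps22, whose human counterpart is mutated in a mitochondrial disease, averaged 17.5 ± 1.86 FPKM at 6 h and 12.5 ± 0.728 FPKM at 1 h, a difference of 0.45. Mrpl45 averaged 16.8 ± 2.03 FPKM at 6 h and 14.8 ± 1.03 FPKM at 1 h, a difference of 0.17, with overlap. Mrps15 and Mrps18c were also among the nearer ones, at 0.13 and 0.18.

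**Figure D3:**
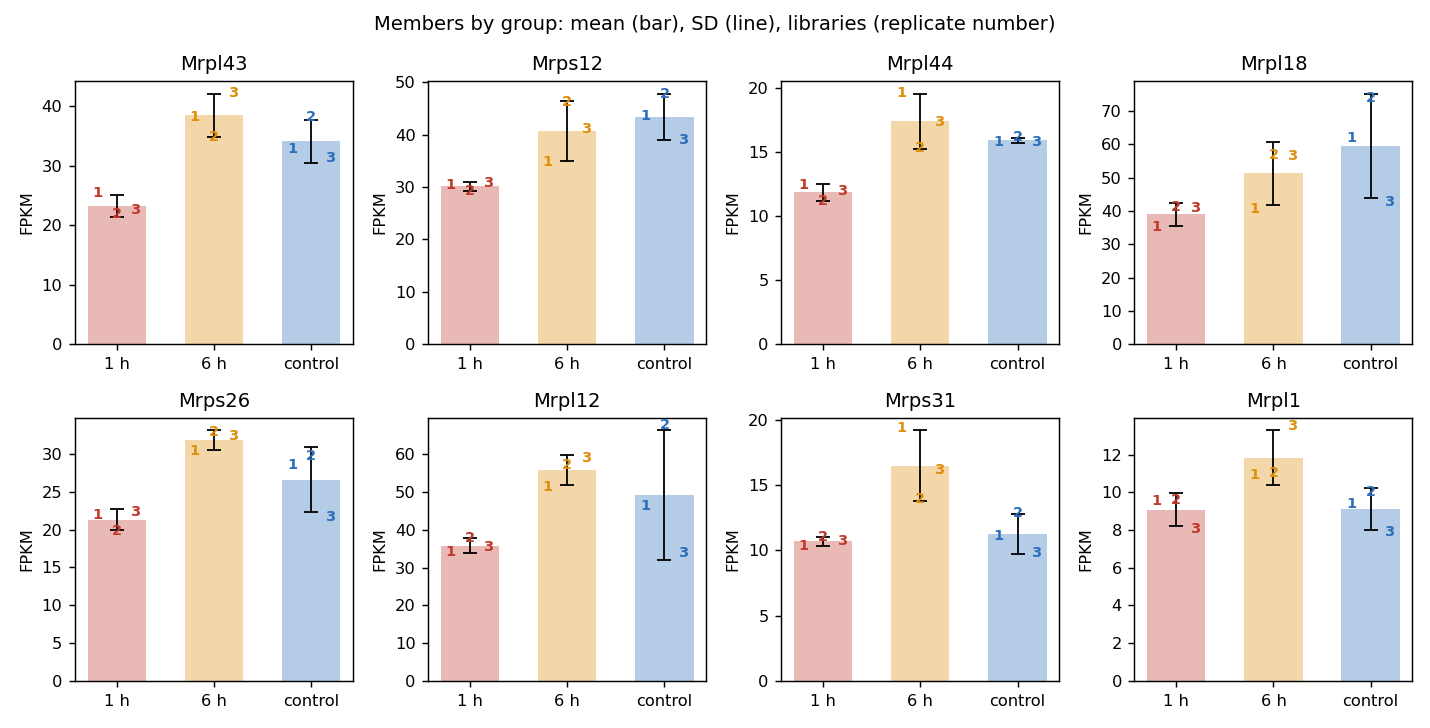
FPKM of 8 members in cells 1 h after heat, 6 h after heat and control cells, with the mean as a bar, the SD as a line (n = 3) and each library as its replicate number. Mrpl43, Mrps12 and Mrpl44 are lower at 1 h than at 6 h or in control cells without overlap, Mrpl18 and Mrpl12 have widely spread controls, and Mrps31 and Mrpl1 are level at 1 h and in control cells and higher at 6 h.

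The spread between replicates differed by group. The coefficient of variation over the 77 members had a median of 6.98% at 1 h, 13.5% at 6 h and 16.2% in control cells. The group with the lowest member levels was thus also the most even one.

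**Figure D4:**
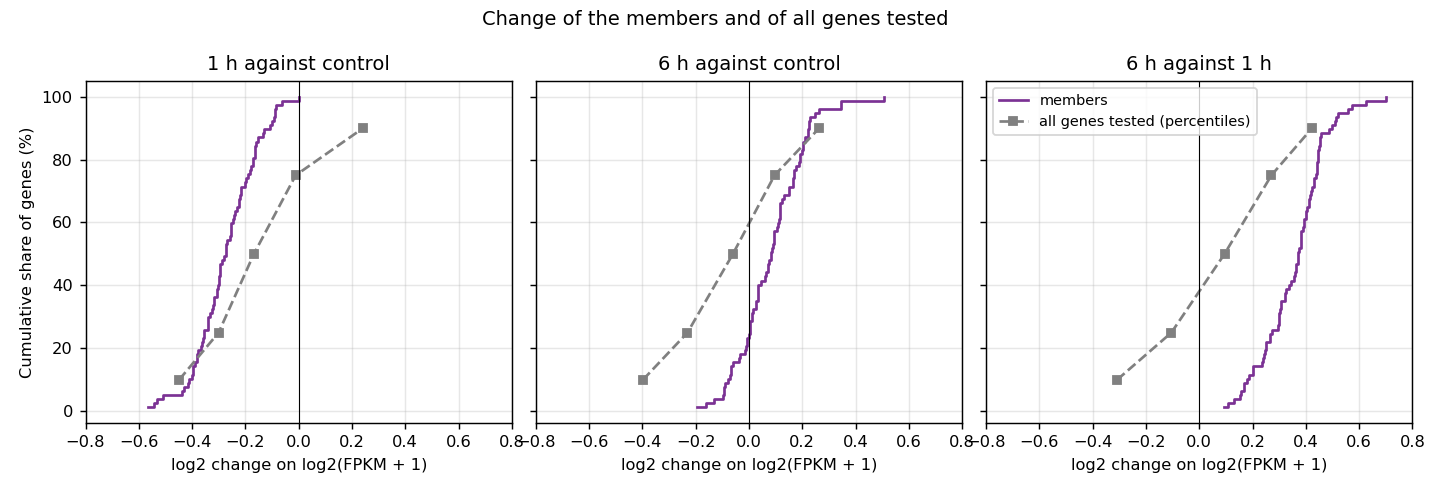
Cumulative share of the 77 members (step line) by log2 change in the 3 comparisons, with the 10th, 25th, 50th, 75th and 90th percentiles of all 11460 genes tested (squares). The members' medians are -0.27, 0.08 and 0.37, and all members lie on one side of 0 at 1 h against control and at 6 h against 1 h.

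Transcript length moved with part of these differences. At 1 h against control the members' medians in the 5 length classes lay between -0.32 and -0.16, and those of the other genes were alike in all classes, between -0.18 and -0.16. At 6 h against 1 h the members stood at 0.35 to 0.38 in every class, while the medians of the other genes ran down with length, with 0.27 for transcripts up to 1000 bases and -0.03 for those over 4000 bases. At 6 h against control the members' medians, from the shortest class to the longest, were 0.07, 0.05, 0.12, 0.22 and 0.14. Those of the other genes were 0.10, 0.04, -0.01, -0.06 and -0.19. Only 3 members have transcripts between 2500 and 4000 bases and 4 have longer ones. In 6 h replicate 2 the members deviated by 0.22 from their means over all libraries, and the other genes by 0.33 up to 1000 bases and -0.31 over 4000 bases. In control replicate 3 the members deviated by -0.18, and the other genes by -0.21 and 0.29 in these classes. With the trend on length removed from each library, a step added after the values were seen, the members' median was -0.12 at 1 h against control, against -0.01 for all genes tested, with 66 of 77 members below 0 and 5 lower at an unadjusted p below 0.05, against 2.97% of the genes tested. At 6 h against 1 h it was 0.15, against -0.01, with 61 above 0 and 3 higher at an unadjusted p below 0.05, against 4.28%. At 6 h against control it was 0.03, against -0.01, with 41 above 0. At an unadjusted p below 0.05, 2 were higher, against 2.09%, and 1 lower, against 2.4%. Since the whole fitted trend was subtracted, this step also re-centred each library. At 1 h against control the members' median minus that of all genes was -0.11 before the step and -0.11 after it. That difference went from 0.28 to 0.16 at 6 h against 1 h, and from 0.14 to 0.04 at 6 h against control.

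**Figure D5:**
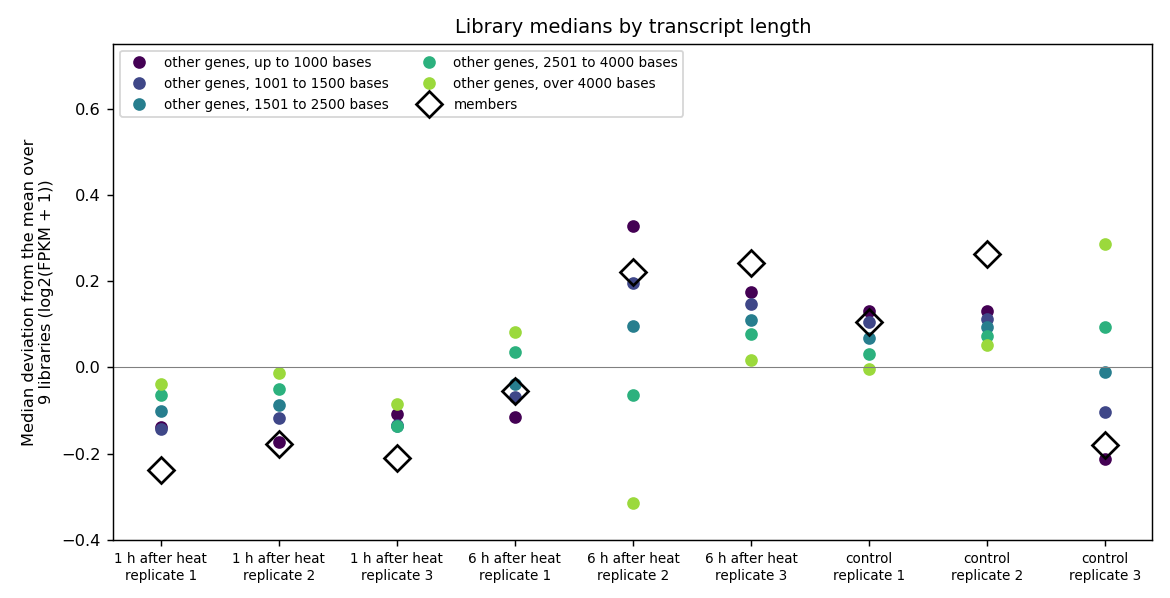
Median deviation of each library from the mean over 9 libraries, on log2(FPKM + 1), for the members (open diamonds) and for the other genes in 5 classes of transcript length (dots). In control replicate 3 and 6 h replicate 2 the classes are spread widely and in opposite order, and the members, whose median length is 1055 bases, lie near the short classes.

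Scaling bore on the same values, since it moves all genes of a library alike. All genes tested had a median of -0.17 at 1 h against control, and with median-of-ratios scaling it was -0.01. On that scale the members' median was -0.11, with 62 of 77 below 0 and 1 lower at an unadjusted p below 0.05, against 2.3% of the genes tested. The members' median minus that of all genes was -0.11 on the scale as deposited and -0.09 on the median-of-ratios scale. At 6 h against 1 h, 75 of 77 members were above 0 on that scale, with a median of 0.25 and 8 higher at an unadjusted p below 0.05, against 3.86%.

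Other gene sets were set beside the members, whose medians were -0.27 at 1 h against control, 0.08 at 6 h against control and 0.37 at 6 h against 1 h. All genes tested had medians of -0.17, -0.06 and 0.09, with 23.8% above 0 and 76.2% below at 1 h against control. The 79 cytosolic ribosomal protein genes tested, which code for the ribosome that makes all nuclear-encoded proteins and are short as well, had a median of 0.03 at 1 h against control, with 55 above 0. They stood at 0.35 at 6 h against control and at 0.33 at 6 h against 1 h. The 78 nuclear genes of the respiratory chain and ATP synthase had medians of -0.20 at 1 h against control, with 74 below 0, of 0.08 at 6 h against control and of 0.28 at 6 h against 1 h. None of these genes was called in limma. Both sets moved with the libraries that stand apart. Without control replicate 3 the cytosolic set had a median of -0.20 at 1 h against control, with all 79 below 0, the respiratory set one of -0.31, with 76 below 0, and the members one of -0.39. Without both control replicate 3 and 6 h replicate 2 the medians at 6 h against control were -0.09 for the cytosolic set, -0.16 for the respiratory set and -0.10 for the members. Without 6 h replicate 2 the medians at 6 h against 1 h were 0.12 for the cytosolic set, 0.17 for the respiratory set and 0.32 for the members. The differences between the sets were not tested.

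The proteins of the mitochondrial ribosome whose genes carry other names were read beside the members. Dap3, Ptcd3, Chchd1, Aurkaip1, Gadd45gip1 and Ict1 were all below control at 1 h, where 76.2% of the genes tested were, with a median of -0.30. At an unadjusted p below 0.05 were 2 of these 6, against 8.05% of the genes tested. Of the 6, 3 were above 0 and 3 below at 6 h against control, with a median of 0.03, where 39.9% of the genes tested were above 0. At 6 h against 1 h 5 were above 0, against 62.9%, with a median of 0.36, while Dap3, a GTP-binding protein of the small subunit, stood at -0.02. Without control replicate 3 their median at 1 h against control was -0.45, and their likeness to the members was not tested. Gadd45gip1 had 11.9, 11.8 and 13.6 FPKM at 1 h, 19.8, 21.4 and 18.8 FPKM at 6 h, and 18.9, 19.7 and 14.4 FPKM in control cells. Ict1, a peptidyl-tRNA hydrolase built into the large subunit, stood at -0.48 at 1 h against control (limma adjusted p = 0.44).

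The genes that work with the ribosome were also followed. Among all genes tested, 76.2% were below control at 1 h and 62.9% were higher at 6 h than at 1 h. The medians over all of them were -0.17 and 0.09. At an unadjusted p below 0.05, 8.05% were lower at 1 h than in control cells and 8.45% higher at 6 h than at 1 h. Of 22 assembly factors tested, 20 were below control at 1 h, with a median of -0.28 and 5 at an unadjusted p below 0.05, and all 22 were higher at 6 h than at 1 h, with a median of 0.31 and 10 at an unadjusted p below 0.05. Ddx28, an RNA helicase needed for the large subunit, had 11.8, 10.0 and 8.11 FPKM at 6 h against 4.32 to 5.6 FPKM at 1 h (log2 difference 0.92; limma adjusted p = 0.098). Mpv17l2, an inner membrane protein that binds the large subunit, had 28.3, 31.6 and 32.1 FPKM at 1 h against 42.9, 48.1 and 46.5 FPKM in control cells (log2 difference -0.57; limma adjusted p = 0.22). Ftsj2, a methyltransferase of the large-subunit RNA, had a log2 difference of -0.76 at 1 h against control (limma adjusted p = 0.24). For Ddx28 and Mpv17l2 the groups named did not overlap. Of 16 translation factors, 15 were below control at 1 h, with a median of -0.26 and 0 at an unadjusted p below 0.05, and all 16 were higher at 6 h than at 1 h, with a median of 0.28. The elongation factor gene Tufm had 43.0, 42.1 and 39.2 FPKM at 1 h against 48.6, 64.0 and 44.8 FPKM in control cells. Of 13 genes for mitochondrial RNA synthesis and processing, 10 were below control at 1 h, a share near that of all genes tested, with a median of -0.22. Polrmt, the mitochondrial RNA polymerase, had 3.81, 3.88 and 3.09 FPKM at 1 h against 5.89, 6.27 and 5.48 FPKM in control cells (log2 difference -0.59; limma adjusted p = 0.24), without overlap. The medians at 1 h against control without control replicate 3 were -0.29 for the assembly factors, -0.27 for the translation factors and -0.26 for RNA synthesis and processing. Without 6 h replicate 2 those at 6 h against 1 h were 0.41 for the assembly factors and 0.30 for the translation factors. None of the genes in these lists was called in any comparison.

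The regulators and the chaperones did not share one direction. Of 7 regulators of mitochondrial gene expression tested, 4 were below control at 1 h and 3 above, where 76.2% of all genes tested were below. Myc, which activates ribosome and mitochondrial genes, had 104, 98.0 and 116 FPKM at 1 h, 45.6, 17.2 and 33.0 FPKM at 6 h, and 54.5, 30.6 and 18.7 FPKM in control cells. Its 1 h libraries lay above all others (log2 difference 1.71 ± 0.40 against control, SE; limma adjusted p = 0.22), while each member had its lowest group mean at 1 h. Esrra, a nuclear receptor that acts with the PGC-1 coactivators, had 9.67, 9.81 and 10.1 FPKM at 1 h and 14.1, 13.9 and 11.3 FPKM in control cells. The coactivator genes Ppargc1a and Ppargc1b had at most 0.04 and 0.97 FPKM in any library and were not tested. Nrf1 averaged a log2 difference of -0.50 at 1 h against control (limma adjusted p = 0.48). Of 9 chaperones and proteases of the mitochondrial matrix, 7 were below control at 1 h, a share near that of all genes tested. Above control were Hspe1 and Hspd1, which share a promoter and form the chaperonin that folds imported proteins. Hspe1 had 459, 706 and 574 FPKM at 1 h, 716, 284 and 428 FPKM at 6 h, and 193, 279 and 187 FPKM in control cells. Its heated libraries all lay above every control library, with log2 differences of 1.40 at 1 h and 1.03 at 6 h (limma adjusted p = 0.22 and 0.88). Hspd1 stood at 1.12 at 1 h against control (limma adjusted p = 0.44).

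Markers of myoid and of other cells were read beside the members. All 8 contractile markers had lower mean log2 values than control cells at 1 h, with a median of -0.44, and at 6 h, with a median of -0.37, where 76.2% and 60.1% of the genes tested did. Leaving out control replicate 3, there were 7 below at 1 h, with a median of -0.17, and 6 at 6 h, with a median of -0.08. All 5 macrophage markers tested had higher means than control cells, with medians of 0.94 at 1 h and 1.02 at 6 h, where 23.8% and 39.9% of the genes tested did. No contractile or macrophage marker was called in limma. The macrophage markers summed to 36.8 to 239 FPKM at 1 h, 37.6 to 249 FPKM at 6 h and 30.5 to 81.5 FPKM in control cells. The Leydig cell markers summed to 872 to 2029.56 FPKM at 1 h, 1400 to 2031 FPKM at 6 h and 910 to 2138 FPKM in control cells. The lowest control sum, that of replicate 3, went with Insl3, at 181 FPKM there against 1607 and 1587 FPKM in replicates 1 and 2. Star (211 against 106 and 42.2 FPKM) and Cyp11a1 (452 against 346 and 387 FPKM) were the highest of the controls in replicate 3. Hsd3b1 had 66.6 FPKM there, against 78.8 and 68.2 FPKM. The endothelial markers summed to 28.2 to 53.4 FPKM at 1 h, 29.9 to 58.4 FPKM at 6 h and 39.1 to 84.6 FPKM in control cells. All 4 tested were below control at 1 h, with a median of -0.51, and at 6 h, with a median of -0.82. Of the genes tested, 76.2% and 60.1% were. None of these 4 was called in limma. Of the 6 germ cell markers, 5 were below 1 FPKM in every library, and the red cell markers with values reached at most 7.08 FPKM in sum. In bulk RNA, fewer cells of a type and less RNA per cell cannot be told apart. The part of these markers in the members' values was not tested.

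The authors' deposited table, made with DEGseq per the file headers, gives other counts. In the authors' deposited table, 68 of the 77 members were lower at 1 h than in control cells at a q-value of at most 0.001 and 0 higher. Of all genes listed, 55.2% passed that q-value, counting both directions. The authors' deposited table had 26 members higher and 2 lower at 6 h against control, 28 of 77 in all, where 44.1% of all genes listed passed in either direction. At 6 h against 1 h it had 73 members higher and 0 lower, where 48.7% passed in either direction. None of the 77 members also reached a 2-fold change in the authors' deposited table in any of the 3 comparisons. Its log2 changes for Mrpl43, in the authors' deposited table, were -0.55 at 1 h against control, 0.17 at 6 h against control and 0.73 at 6 h against 1 h.

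Some members carry doubts of annotation. The deposited table places Mrpl27 on another chromosome than RefSeq and GENCODE do, over a span hardly longer than its transcript, so its reads may be shared with a copy. Mrpl27 had 39.2, 68.2 and 55.9 FPKM at 6 h and 44.7, 42.6 and 37.7 FPKM in control cells, with overlap. GENCODE lists processed pseudogenes of Mrpl23, Mrpl48 and Mrps36, to which reads may be divided. By the coordinates of the deposited table Mrpl19, Mrpl24, Mrpl41, Mrpl49 and Mrps25 overlap Gcfc2, Rrnad1, Dph7, Syvn1 and Nr2c2 on the opposite strand, and Mrps6 spans Slc5a3 on its own strand. Since the strand setting of the libraries is not given in the sources used here, reads of such pairs cannot be told apart.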

How the data were processed

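The deposited table gives 1 value per gene and library in FPKM, per the file headers, with the authors' log2 changes and q-values beside them. RSEM 1.2.12, Bowtie2 2.2.5, HISAT2 2.0.4 and the build mm10 appear in the submitters' processing notes. An FPKM value is a share, so higher levels of some transcripts lower the rest. The sources used here give neither kit nor strand setting. Differences on log2(FPKM + 1), a scale that understates changes of low genes, were tested in R 4.3.3 with limma 3.58.1, with a variance trend, all 9 libraries in 1 fit, 6 residual degrees of freedom and two-sided p-values with Benjamini-Hochberg adjustment over 11460 genes. The script was tested on simulated data. The design foresaw RPKM or counts, and the same log-scale test applies to FPKM. Depth was estimated from values of short transcripts. Within 0.2 of a whole read lay 89.8% to 93.1% of these low values, where 40% would by chance. The members, gene lists and tests were chosen with earlier results of these data known. Named members were the 5 with the smallest p per comparison and direction, the 4 highest and 4 lowest per subunit, and 11 picked by role. Libraries of the same number at 1 h and in control cells deviated together only weakly over all genes tested (correlations 0.19, 0.15 and 0.26). Those of 6 h and control cells did not (-0.18, 0.04 and 0.01), nor those of 6 h and 1 h (-0.27, -0.10 and -0.35). Over the members the correlations at 1 h and in control cells were 0.20, 0.49 and 0.09. The labels state no pairing, and the main fit had no replicate block. In limma with a block, 10 members were lower at 1 h against control at an unadjusted p below 0.05 (6.33% of the genes tested), and 13 without it (8.05%).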

Additional observations from a re-analysis of the deposited data

How the results depend on the processing

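No member was called under any alternative run. The counts at an unadjusted p below 0.05 moved most. At 1 h against control (13 lower, against 8.05% of the genes tested) there were 1 with median-of-ratios scaling (2.3% of the genes tested), 4 with quantile normalization (3.66%), and 42 without both control replicate 3 and 6 h replicate 2 (14.3%). Leaving out 1 library gave 5 to 35, with 35 without control replicate 3 (8.84%), 5 without control replicate 2 (7.37%), 6 without 1 h replicate 1 (4.96%) and 7 without 1 h replicate 2 (4.31%), and medians of -0.39 to -0.16. At 6 h against control (1 higher, against 1.27% of the genes tested) there were 2 with no filter (1.58%), 2 with a filter of 5 FPKM (1.12%), 2 with median-of-ratios scaling (1.76%), 3 with quantile normalization (2.31%), and 1 to 4 leaving out 1 library, with 4 without 6 h replicate 1 (2%) or control replicate 2 (1.3%). On the lower side (0, against 3.35%) there were 1 without control replicate 3 (2.84%), 2 without both libraries (3.42%) and 1 with the transcript-length trend removed (2.4%; 2.13% with a replicate block). The median of 0.08 became -0.03 without control replicate 3 and -0.10 without both libraries, and lay between -0.03 and 0.17 leaving out 1 library. At 6 h against 1 h (31 higher, against 8.45% of the genes tested) there were 8 with median-of-ratios scaling (3.86%), 20 with quantile normalization (6.28%) and 11 to 48 leaving out 1 library, the extremes being without 6 h replicate 3 (4.02%) and without 6 h replicate 1 (10.6%), with 16 and 17 without 1 h replicates 1 and 3 (5.54% and 4.63%). The medians then lay between 0.31 and 0.43. Removal of the transcript-length trend was chosen after the data were seen and also re-centred each library. The counts were then 5 lower, 2 higher and 3 higher in these comparisons, with or without a replicate block. The 6 h against 1 h median was 0.15 in both fits. The replicate block alone gave counts of 10, 1 and 28 (6.33%, 1.27% and 6.31% of the genes tested) and changed no call. Of single members at 6 h against control, Mrpl37 turned to 0.013 without control replicate 2 (-0.24 to 0.013 leaving out 1 library), Mrps12 to 0.0089 without 6 h replicate 1 (-0.19 to 0.0089 leaving out 1 library, -0.26 without both libraries), and Mrps25 to 0.0010 with quantile normalization and 0.10 with the length trend removed, with or without a replicate block. The counts of members without overlap and the medians of other gene sets without control replicate 3 or 6 h replicate 2 were also chosen after the data were seen. The causes were not tested. The SD of the libraries' member medians was 0.03 at 1 h, 0.17 at 6 h and 0.22 in control cells, and it limits every comparison with 3 libraries a group.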

Other observations

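Many members face another gene across a shared start region. Of 76 members placed with confidence, 23 (30.3%) start within 1000 bases of a gene on the opposite strand that points away, against 11.7% of the genes tested. Mrpl46 and Mrps11, of different subunits, share such a region, with starts 42 bases apart. Mrpl46 averaged a log2 difference of -0.35 and Mrps11 of -0.24 at 1 h against control. The 20 partners that are not members and were tested had a median of -0.21 at 1 h against control, with 17 below 0, against 76.2% of the genes tested. Their median at 6 h against 1 h was 0.14, with 15 above 0, against 62.9%. Without control replicate 3 their median at 1 h against control was -0.28, and without 6 h replicate 2 that at 6 h against 1 h was 0.19. Mrps12 faces Sars2, the mitochondrial seryl-tRNA synthetase, whose difference at 1 h was -0.31, and Mrpl43 faces Peo1, the mitochondrial DNA helicase, with 5.32, 5.77 and 5.35 FPKM at 1 h and 4.99, 5.94 and 5.61 FPKM in control cells. Mrpl18 faces Tcp1, a subunit of the cytosolic chaperonin, with a difference of -0.13. Ppp1r10, named after its values were seen, starts 827 bases from Mrps18b and had 21.4, 33.8 and 27.8 FPKM at 1 h and 14.5, 19.0 and 16.8 FPKM in control cells, above 0 where Mrps18b was below. No test of members against their partners was run.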
